A study of Mus musculus with 21 samples.

Results

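The Nr4a genes encode a small family of nuclear receptors, and the 3 mouse members, Nr4a1 (Nur77), Nr4a2 (Nurr1) and Nr4a3 (Nor1), were followed through 6 groups of macrophages defined by genotype and time after lipopolysaccharide (LPS). Members were found by mapping the RefSeq transcript identifiers of the count table to gene symbols, which gave these 3 of the 25067 genes in the table. Most nuclear receptors are switched by a ligand, but the ligand pocket of the Nr4a proteins is largely filled by side chains, so their activity is set mainly by how much receptor is made. The genes are immediate early genes, transcribed quickly and briefly after a stimulus. The proteins bind a short DNA element, the NBRE, as monomers, and Nr4a1 and Nr4a2 also pair with the retinoid X receptor. In macrophages the family is induced by inflammatory signals through NF-kB and CREB, and Nr4a1 is known as a brake on inflammatory gene expression and on the Krebs cycle enzyme gene Idh1.

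The cells were bone marrow-derived macrophages of male C57Bl6/J mice aged 6 to 12 weeks, grown from marrow for 7 days in medium holding 15% L929-conditioned medium, in which a fibroblast line supplies macrophage colony-stimulating factor. There were 3 libraries labelled Nur77-KO (numbers 2, 3 and 4) and 4 WT libraries (numbers 1 to 4) at each of 0 h (no LPS), 4 h and 18 h of 100 ng/ml LPS, 21 in all. The genotype tag of the labelled Nur77-KO libraries reads cre. The sources used here do not state which part of Nr4a1 the allele removes or in which cells. Nothing in the labels ties a replicate number to a mouse of its own, and the p-values therefore reflect variation among these libraries, which may be technical.

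Each library held 23478281.5 to 55852932 deposited counts over all transcripts, of which 12301504 to 29650081 lay on the 1 transcript kept for each gene. All 10 macrophage markers passed the expression filter, with summed levels of 13600 to 25600 counts scaled to library size (CPM) in every library, so the labelled cell type was borne out by its markers. Levels below are CPM on normalised library sizes. Log2 differences, their standard errors (SE) and adjusted p-values come from the edgeR quasi-likelihood test, Benjamini-Hochberg adjusted over 12529 genes, and a gene was called at an adjusted p under 0.05. In such bulk samples, fewer cells of a type and less RNA per cell cannot be told apart.

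Nr4a1 (NM_010444) lies on chromosome 15 at 101253902 to 101274795 (mm10, plus strand), and its transcript of 7 exons spans 101266846 to 101274795. It was the highest family member in resting cells and fell in both genotypes after LPS. At 0 h it stood at 12.4, 12.2 and 12.4 CPM in the labelled Nur77-KO libraries, against 13.4, 16.2, 15.2 and 14.0 CPM in the WT libraries. All 3 labelled-KO libraries lay below all 4 WT libraries, but the difference was small, a log2 difference of -0.25 (SE 0.302, adjusted p = 0.75). The transcript counts thus did not separate the labelled-KO from the WT libraries by a loss of Nr4a1 mRNA, and since the position of the lesion is unknown, they check the genotype label only as far as total Nr4a1 reads can. For this reason the libraries are called labelled-KO throughout.

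At 4 h Nr4a1 stood at 0.531, 0.869 and 1.21 CPM in the labelled-KO libraries, against 7.25, 2.16, 1.74 and 1.30 CPM in the WT libraries. The groups did not overlap, and WT number 1 lay far above the other WT libraries. The log2 difference was -1.77 (SE 0.497, adjusted p = 0.04 in the edgeR quasi-likelihood test). Without WT number 1 at 4 h it was -0.85 with an adjusted p of 0.091, and over all alternatives the adjusted p ran from 0.0033 to 0.19. Without labelled-KO number 2, 3 or 4 the values were -1.55, -1.75 and -2.17, also not called (adjusted p = 0.14, 0.089 and 0.1). At 18 h the order of the genotypes was turned round. Nr4a1 stood at 2.96, 2.1 and 3.48 CPM in the labelled-KO libraries, against 1.04, 1.33, 0.965 and 1.08 CPM in the WT libraries. Every labelled-KO library was above every WT library, with a log2 difference of 1.35 (SE 0.44, adjusted p = 0.023). The summed level of 14 stromal markers was also higher in labelled-KO macrophages at 18 h, at 60.4, 208 and 905 CPM in labelled-KO numbers 2, 3 and 4, against 17.4 to 70.2 CPM in WT, with no marker at 0 in all libraries of either group. This was not particular to 18 h. The median sum was 179 CPM in labelled-KO and 15.9 CPM in WT at 0 h, and 126 and 39.7 CPM at 4 h, with overlapping libraries at each time. With the mean of that list as a covariate the Nr4a1 difference at 18 h was 1.01 and lost its call (adjusted p = 0.17, and 0.00044 to 0.17 over all alternatives), and without labelled-KO number 4 it was 1.16 (adjusted p = 0.12). The call also ended without labelled-KO number 2 at 18 h (1.32, adjusted p = 0.055) and without WT number 1 at 18 h (1.30, adjusted p = 0.051). It was kept when WT number 1 was left out at all times, and when only the 18 h libraries were fitted.

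Set against untreated cells of the same label, Nr4a1 fell by 3.74 on the log2 scale at 4 h and by 2.1 at 18 h in labelled-KO cells (adjusted p = 2.3e-07 and 4.5e-05). In WT cells it fell by 2.22 at 4 h and by 3.7 at 18 h (adjusted p = 1.8e-06 and 6.5e-09). Without WT number 1 at 4 h, the WT fall at 4 h was larger, at -3.14. Between 4 h and 18 h Nr4a1 rose in labelled-KO cells by 1.64 (SE 0.534, adjusted p = 0.01). In WT cells it fell by 1.48 over the same interval (SE 0.398, adjusted p = 0.0023), although the WT groups overlapped, and without WT number 1 at 4 h the value was -0.56 (adjusted p = 0.045). From lowest to highest, mean Nr4a1 levels were 0.871 CPM in labelled-KO at 4 h, 1.10 CPM in WT at 18 h, 2.85 CPM in labelled-KO at 18 h, 3.11 CPM in WT at 4 h, 12.3 CPM in labelled-KO at 0 h and 14.7 CPM in WT at 0 h. The libraries of labelled-KO at 4 h and WT at 18 h overlapped, as did those of labelled-KO at 18 h and WT at 4 h.

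**Figure D1:**
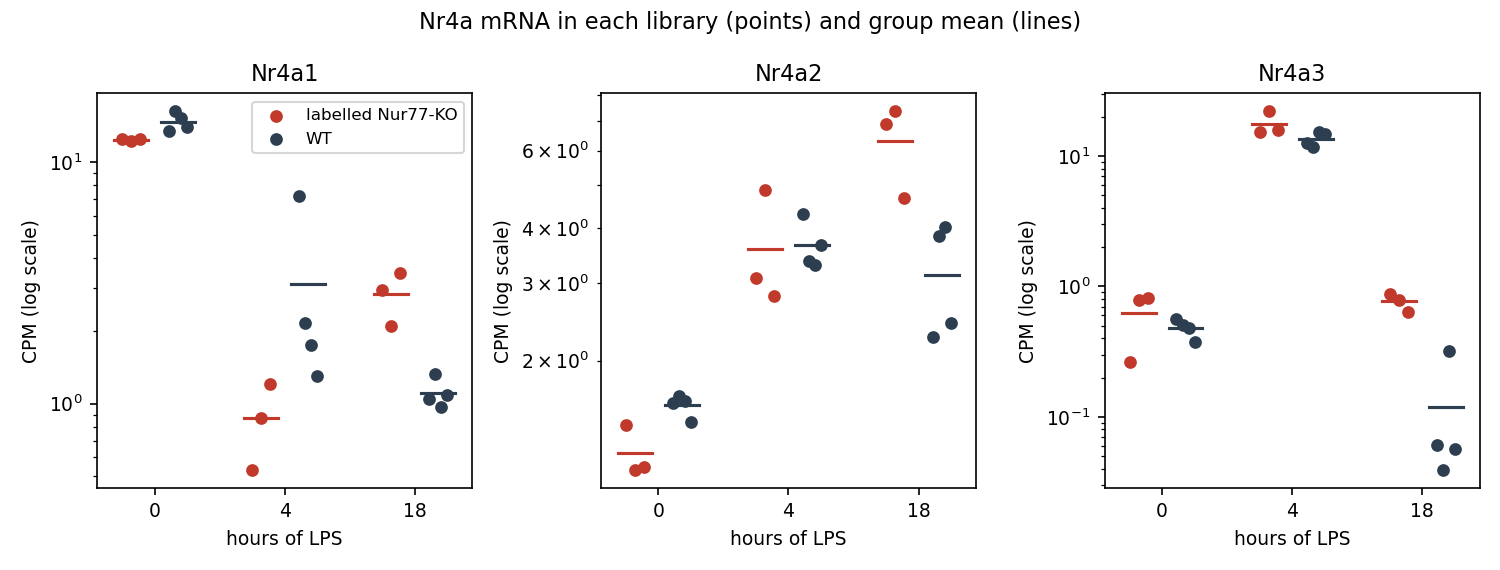
CPM of Nr4a1, Nr4a2 and Nr4a3 on a log axis against hours of LPS, with a point for each library (3 labelled Nur77-KO in red to the left, 4 WT in dark blue to the right) and a line at each group mean. Nr4a1 was highest at 0 h, Nr4a3 at 4 h, and at 18 h the labelled-KO points lay above the WT points for all 3 genes, by as little as 4.69 against 4.02 CPM for Nr4a2.

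Nr4a2 lies on chromosome 2 at 57106830 to 57124003 (mm10, minus strand). It rose after LPS in both genotypes and went on rising to 18 h in labelled-KO cells. At 0 h it stood at 1.43, 1.13 and 1.15 CPM in labelled-KO libraries, against 1.60, 1.66, 1.62 and 1.45 CPM in WT libraries. The labelled-KO values all lay below the WT values, by a log2 difference of -0.36 that was not called (SE 0.249, adjusted p = 0.52, edgeR quasi-likelihood test). At 4 h the libraries of the genotypes overlapped, at 3.08, 4.89 and 2.81 CPM in labelled-KO against 4.30, 3.37, 3.29 and 3.67 CPM in WT. The difference there was -0.06 (SE 0.234, adjusted p = 0.93, 95% interval -0.52 to 0.40).

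At 18 h Nr4a2 stood at 6.88, 7.36 and 4.69 CPM in labelled-KO libraries, against 2.26, 3.83, 4.02 and 2.44 CPM in WT libraries. The groups did not overlap, and the difference was 1.00 on the log2 scale (SE 0.219, adjusted p = 0.0016), a doubling that kept its call without each library and under each other setting tried. With the stromal covariate it was 1.05 (adjusted p = 0.0066). Against 0 h, Nr4a2 rose by 1.52 at 4 h and by 2.35 at 18 h in labelled-KO cells (adjusted p = 2.8e-05 and 4e-08). In WT cells it rose by 1.21 at 4 h and by 0.98 at 18 h (adjusted p = 2.7e-05 and 0.00034). From 4 h to 18 h it rose by 0.83 in labelled-KO cells (adjusted p = 0.0053, groups overlapping), while the WT difference of -0.23 was not called (adjusted p = 0.33). By group mean Nr4a2 was highest in labelled-KO at 18 h (6.31 CPM), followed by labelled-KO and WT at 4 h (3.59 and 3.66 CPM), WT at 18 h (3.14 CPM), and labelled-KO and WT at 0 h (1.24 and 1.58 CPM). The libraries of the middle groups, labelled-KO and WT at 4 h and WT at 18 h, overlapped each other, and labelled-KO at 18 h overlapped labelled-KO at 4 h (4.69 against 4.89 CPM).

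Nr4a3 (NM_015743) lies on chromosome 4 at 48045078 to 48086447 (mm10, plus strand). It had the steepest response to LPS of the family, a rise at 4 h that was over by 18 h. At 0 h it stood at 0.265, 0.788 and 0.815 CPM in labelled-KO libraries, against 0.559, 0.506, 0.482 and 0.375 CPM in WT libraries. These ranges overlapped, and the log2 difference of 0.38 was not called (adjusted p = 0.64, edgeR quasi-likelihood test). At 4 h Nr4a3 stood at 15.2, 22.0 and 15.9 CPM in labelled-KO libraries, against 12.5, 11.7, 15.2 and 14.7 CPM in WT libraries. The lowest labelled-KO library and the highest WT library were level at 3 digits, and the difference was again 0.38 (SE 0.201, adjusted p = 0.29). The rise from 0 h to 4 h was 4.77 on the log2 scale in labelled-KO cells and 4.77 in WT cells (adjusted p = 1.3e-12 and 9.2e-14), 27.2-fold and 27.3-fold.

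By 18 h Nr4a3 was back at 0.871, 0.788 and 0.640 CPM in labelled-KO libraries, but stood at 0.061, 0.039, 0.322 and 0.057 CPM in WT libraries. The WT values rest on deposited counts of 1, 1, 4 and 1, against 10, 8.5 and 9 in the labelled-KO libraries. The groups did not overlap, and the fitted difference was 2.87 (SE 0.533, adjusted p = 0.00041). As a ratio of depth-scaled counts, 28 in labelled-KO against 7 in WT, it was 7.79-fold with a 95% counting interval of 3.33 to 21.1. Without WT number 3, the highest of the WT libraries, the fitted value was 3.74, and with the stromal covariate it was 2.97. Against 0 h, Nr4a3 at 18 h differed by 0.24 in labelled-KO cells (adjusted p = 0.59, groups overlapping), while in WT cells it fell by 2.24 (SE 0.487, adjusted p = 0.00033; -3.12 without WT number 3 at 18 h). From 4 h to 18 h it fell by 4.53 in labelled-KO and by 7.01 in WT cells (adjusted p = 1.9e-11 and 5.7e-14). From highest to lowest, group means were 17.7 CPM in labelled-KO and 13.5 CPM in WT at 4 h, 0.766 CPM in labelled-KO at 18 h, 0.623 and 0.481 CPM in labelled-KO and WT at 0 h, and 0.120 CPM in WT at 18 h. Labelled-KO libraries at 18 h overlapped those at 0 h, and labelled-KO and WT libraries overlapped at 0 h.

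More members differed between the labels at 18 h than at the earlier times. Of the 3 members, 0 were called between labelled-KO and WT macrophages at 0 h, where 3.98% of all tested genes were called (1989 genes had an unadjusted p under 0.05 there, and DESeq2 and limma-voom also called no member). At 4 h Nr4a1 alone was called, lower in labelled-KO, where 5.56% of all genes were called and 2.7% were called lower. At 18 h all 3 were called higher in labelled-KO macrophages, where 32.2% of all genes were called and 16.6% were called higher. By log2 difference at 18 h, Nr4a3, Nr4a1 and Nr4a2 held ranks 2, 3 and 5 among 25 tested nuclear receptor genes. Rank 1 was the vitamin D receptor gene Vdr, named here after its value was seen, which averaged 1.63 CPM in labelled-KO and 0.115 CPM in WT macrophages at 18 h (log2 difference 3.99, SE 0.877, adjusted p = 0.0017, edgeR quasi-likelihood test).

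The change with time also differed between the labels, tested as the interaction of genotype and time. From 0 h to 4 h no member was called. The difference in change was -1.52 for Nr4a1 (adjusted p = 0.35, unadjusted p = 0.017, the 1 member under 0.05 before adjustment), 0.31 for Nr4a2 and 0.00 for Nr4a3 (adjusted p = 0.83 and 1, edgeR quasi-likelihood test), where 0.798% of all genes were called (0.599% higher and 0.2% lower). From 0 h to 18 h all 3 were called, where 17.6% of all genes were called (8.57% higher and 9% lower). Nr4a1 fell less in labelled-KO than in WT macrophages, by 1.60 (SE 0.534, adjusted p = 0.043), a call that was lost in 12 of 14 fits without a library, all but those without labelled-KO number 3 at 18 h or WT number 4 at 0 h. Nr4a2 rose more, by 1.37 (SE 0.332, adjusted p = 0.0077), and Nr4a3 ended 2.48 higher relative to its own start (SE 0.64, adjusted p = 0.011). From 4 h to 18 h all 3 were called again, against 10.8% of all genes (6.26% higher and 4.58% lower), at 3.12 for Nr4a1, 1.06 for Nr4a2 and 2.49 for Nr4a3 (adjusted p = 0.0043, 0.039 and 0.0079). Without WT number 1 at 4 h the value for Nr4a1 was 2.19 (adjusted p = 0.00049) and that for Nr4a2 was 0.97 and no longer called (adjusted p = 0.069), as in 8 of 14 fits without a library. Without WT number 3 at 18 h the Nr4a3 value was 3.36 over either interval. These comparisons share the 18 h libraries with the direct genotype comparison at 18 h.

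**Figure D2:**
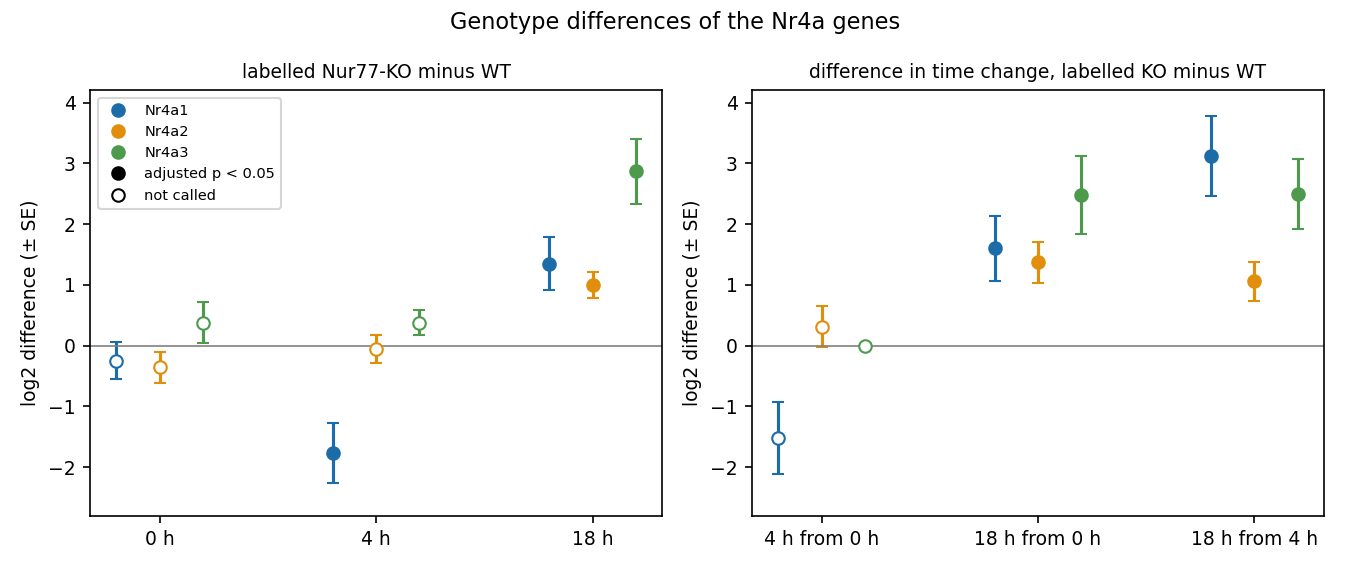
Log2 differences between labelled Nur77-KO and WT macrophages with their SE, at each time (left) and as the difference in change over each interval (right), for Nr4a1 (blue), Nr4a2 (orange) and Nr4a3 (green). Filled points were called at an adjusted p under 0.05, Nr4a1 at 4 h was called below 0 and all 3 genes at 18 h above 0, and the Nr4a3 point for 4 h from 0 h has no SE because its difference was 0.00.

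Against the LPS response as a whole, moving with time was common. From 0 h to 4 h all 3 members were called in labelled-KO macrophages, where 75% of all genes were called (33.5% higher and 41.5% lower), and all 3 in WT macrophages, where 78.1% were called (35.1% higher and 43% lower). In both labels Nr4a2 and Nr4a3 rose and Nr4a1 fell. From 0 h to 18 h 2 members were called in labelled-KO macrophages, Nr4a2 higher and Nr4a1 lower, where 73% of all genes were called (34.5% higher and 38.5% lower). All 3 were called in WT macrophages, Nr4a2 higher and the others lower, where 71.1% of all genes were called (34.8% higher and 36.3% lower). From 4 h to 18 h all 3 were called in labelled-KO macrophages, Nr4a1 and Nr4a2 higher and Nr4a3 lower, where 65.4% of all genes were called (33.3% higher and 32.1% lower). In WT macrophages Nr4a1 and Nr4a3 were called lower, where 71.7% of all genes were called (37.2% higher and 34.5% lower).

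The member that dominated the family's mRNA changed at each time. Levels of different genes were compared as CPM per kilobase of transcript, with transcript lengths of 2477 nt for Nr4a1, 3422 nt for Nr4a2 and 5720 nt for Nr4a3. At 0 h Nr4a1 made up 91.4% ± 0.115 of the family's summed CPM per kilobase in labelled-KO libraries and 91.5% ± 0.645 in WT libraries (SD, n = 3 and 4). At 4 h Nr4a3 made up 68.9% ± 1.31 in labelled-KO and 52.5% ± 12.8 in WT libraries. WT number 1 at 4 h differed from all other 4 h libraries in its order, with Nr4a1 at 45.9% and Nr4a3 at 34.4% of the sum. At 18 h Nr4a2 was the largest share, 58.6% ± 10.6 in labelled-KO and 65.5% ± 5.52 in WT libraries, except in labelled-KO number 4, where Nr4a1 held 48.7% and Nr4a2 47.5%. The summed level itself was 5.45 ± 0.0473, 4.50 ± 0.987 and 3.13 ± 0.235 CPM per kilobase in labelled-KO macrophages at 0, 4 and 18 h. In WT macrophages it was 6.49 ± 0.532, 4.70 ± 1.14 and 1.38 ± 0.299 CPM per kilobase at these times.

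**Figure D3:**
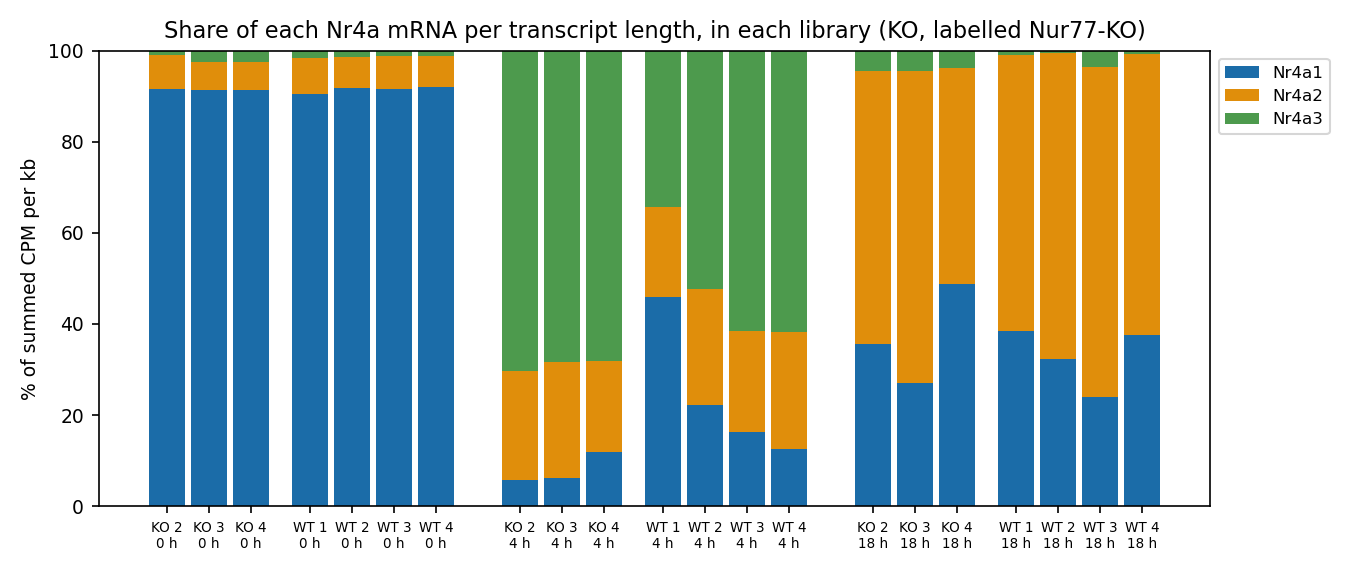
Share of each member in the summed CPM per kilobase of the 3 Nr4a transcripts, as a stacked bar for each of the 21 libraries, labelled Nur77-KO (KO) left of WT at each time. Nr4a1 (blue) fills 90.6% or more of every bar at 0 h, Nr4a3 (green) is the largest share at 4 h in all libraries except WT number 1, and Nr4a2 (orange) is the largest at 18 h in all except labelled-KO number 4.

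Among the 24 nuclear receptor genes with a transcript length, the family stood in the middle or low by CPM per kilobase. Nr4a1 ranked 13 in labelled-KO and 11 in WT macrophages at 0 h, at 4.98 and 5.94 CPM per kilobase, while Rxra, the retinoid X receptor alpha gene, led with 71.3 and 56.1. Nr4a3 ranked 24 and 23 at 0 h, and 9 in both labels at 4 h (3.09 CPM per kilobase in labelled-KO and 2.37 in WT). At 18 h Nr4a2 was the best placed member, at rank 16 in both labels with 1.84 CPM per kilobase in labelled-KO and 0.917 in WT macrophages.

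Separate transcripts were compared where the table held several. For Nr4a1 it held NM_010444 alone, so the reads could not be split by first exon or by any part of the gene. For Nr4a2 it held NM_001139509 (3422 nt), whose first exon lies at 57123829 to 57124003, and NM_013613 (3568 nt), whose first exon lies at 57114718 to 57115038. Their deposited counts were within 2 of each other in every library and summed to 1048.5 each, so the counts did not tell these starts apart. For Nr4a3 the counts of NM_001307989 were 24.3% of those of NM_015743 over all libraries. At 4 h, where counts were highest, they were 26.2% of those of NM_015743 in labelled-KO (25.3 to 28.4% in single libraries) and 22.5% in WT (22.1 to 23%). The ranges did not overlap, and no test was made of this ratio. Fitted on its own, NM_001307989 differed at 18 h by 1.99 (SE 0.914, adjusted p = 0.1 in the edgeR quasi-likelihood test over 24902 transcripts), on 7 counts in labelled-KO against 3 in WT.

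Bases before a transcript start of each of the 3 genes are shown. Capitals mark TGACG, the core that CREB and its relatives bind, on either strand (as TGACG or its complement CGTCA). Whether these cores bear on the differences between the labels was not tested. The sequences are RefSeq promoter windows of GRCm38.p6, each read 5′ to 3′ on the gene's strand. For Nr4a1 and Nr4a2 these are the 250 bases before the start, chr15:101266596-101266845 on the plus strand and chr2:57124004-57124253 on the minus strand. For Nr4a3, whose window runs past the start of NM_015743, they are the first 50 bases of the window, chr4:48045055-48045104 on the plus strand. These hold 3 of its 4 matches. They lie before that transcript's start at 48045153 but run into the annotated gene, which begins at 48045078. The Nr4a1 bases lie wholly within its annotated gene, which begins at 101253902, before the start of its transcript.
Nr4a1: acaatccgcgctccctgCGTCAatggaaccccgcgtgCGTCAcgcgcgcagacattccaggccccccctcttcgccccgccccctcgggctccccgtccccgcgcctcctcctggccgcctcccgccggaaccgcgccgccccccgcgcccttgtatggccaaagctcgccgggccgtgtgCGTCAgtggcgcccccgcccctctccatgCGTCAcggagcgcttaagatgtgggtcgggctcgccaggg
Nr4a2: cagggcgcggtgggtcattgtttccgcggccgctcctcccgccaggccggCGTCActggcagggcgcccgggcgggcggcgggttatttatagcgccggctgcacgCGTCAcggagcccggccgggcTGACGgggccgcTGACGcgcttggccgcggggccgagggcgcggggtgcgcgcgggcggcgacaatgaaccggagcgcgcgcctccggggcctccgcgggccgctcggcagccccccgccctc
Nr4a3: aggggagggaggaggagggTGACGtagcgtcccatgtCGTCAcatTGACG

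Each member's full window of 300 bases held 4 matches to TGACG. The Nr4a3 window runs from 48045055 to 48045354, but its transcript NM_015743 starts at 48045153. The last of the Nr4a3 matches therefore lies past that start, within the first exon. Of 32851 RefSeq promoter windows of that length, 20.8% held at least 1 match and 76 windows (0.231%) held 4 or more. The full palindrome TGACGTCA was in none of the 3 windows (1.79% of all windows), and neither was the NBRE AAAGGTCA (1.51%) or a CArG box, the element of serum response factor (1.63%). A kB site, the element of NF-kB, matched once in the Nr4a1 window and in neither of the others (8.46% of all windows). All motifs were searched on both strands, and the full palindrome would itself count as 2 overlapping cores.

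Of the upstream regulators of the family, a list of 21 kinases, CREB and MEF2 factors and class IIa histone deacetylases, all were tested. At 18 h 7 were higher in labelled-KO than in WT macrophages and 2 were lower (16.6% and 15.6% of all genes), with a median log2 difference of 0.08 beside -0.01 over all genes. Crem, a cyclic AMP-responsive relative of CREB, averaged 30.2 ± 2.90 CPM in labelled-KO and 13.5 ± 1.25 CPM in WT macrophages (SD, n = 3 and 4; log2 difference 1.16, adjusted p = 5.6e-07). Hdac7, a deacetylase that holds MEF2 factors silent, averaged 20.4 ± 2.28 and 11.5 ± 0.977 CPM (0.83, adjusted p = 0.00059). Rps6ka1, a kinase that acts on CREB and on Nr4a1 itself, was lower, at 68.4 ± 7.40 CPM in labelled-KO and 102 ± 5.40 CPM in WT macrophages (-0.57, adjusted p = 2.8e-05, edgeR quasi-likelihood test). At 0 h 0 were higher and 1 was lower (1.11% and 2.87% of all genes), and at 4 h 2 were higher and 2 lower (2.87% and 2.7%).

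Within each label the same list moved widely with LPS. At 4 h against 0 h, 6 members rose and 12 fell in labelled-KO macrophages (33.5% and 41.5% of all genes), and 6 rose and 13 fell in WT macrophages (35.1% and 43% of all genes). Hdac5, a further MEF2 repressor, changed at 4 h by -4.32 on the log2 scale in labelled-KO and by -4.23 in WT macrophages (adjusted p = 1.5e-15 and 5.3e-17). Mef2d, an activator of Nr4a1 in T cells, changed by -3.13 and -3.05 (adjusted p = 2.2e-15 and 1.2e-16, edgeR quasi-likelihood test). Hdac9 rose by 3.16 and by 2.33 (adjusted p = 4.9e-16 and 2.2e-15).

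Of 14 partners and coregulators, 13 were tested, and Rxrg, at no more than 0.0266 CPM, was not. At 18 h 4 were higher in labelled-KO macrophages (Hdac1, Ncoa1, Ep300 and Crebbp, with log2 differences of 0.36 to 0.40) and 0 were lower, where 16.6% and 15.6% of all genes were, and the list's median was 0.14 beside -0.01 over all genes. Rxra, the dimer partner of Nr4a1 and Nr4a2, averaged 88.0 ± 6.81 CPM in labelled-KO and 93.8 ± 5.60 CPM in WT macrophages at 18 h (-0.09, adjusted p = 0.56). At 4 h Rxra was higher in labelled-KO, at 9.14 ± 1.32 CPM against 6.48 ± 1.31 CPM in WT (0.52, adjusted p = 0.048, edgeR quasi-likelihood test), but limma-voom called 0 of the 13 at that time. At that time it was far below its 0 h level in both labels, by -3.94 in labelled-KO and -4.11 in WT macrophages (adjusted p = 4e-16 and 1.4e-17).

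Of 21 genes reported as Nr4a targets in other tissues or cells, 10 were tested, and the 11 others, among them the gluconeogenic genes Pck1 and G6pc, did not pass the expression filter. At 0 h and at 4 h 0 of the 10 were called between the labels by edgeR, DESeq2 or limma-voom. In edgeR 2 and 1 had an unadjusted p under 0.05. Of all genes, edgeR called 3.98% and 5.56% at these times, so 0 of 10 lies near those shares. At 18 h 2 were higher in labelled-KO macrophages and 2 were lower, near the 16.6% and 15.6% of all genes, with a median log2 difference of -0.03 beside -0.01 over all genes. Tnfsf10, the death ligand TRAIL, averaged 247 ± 10.9 CPM in labelled-KO and 115 ± 6.60 CPM in WT macrophages (1.10, adjusted p = 0.0035, edgeR quasi-likelihood test). Spp1, osteopontin, averaged 1360 ± 284 and 822 ± 91.8 CPM (0.72, adjusted p = 0.0028). Idh1, isocitrate dehydrogenase, was lower at 18 h, at 43.7 ± 0.959 CPM in labelled-KO and 54.3 ± 5.53 CPM in WT macrophages (-0.31, adjusted p = 0.011), and at 0 h it averaged 349 ± 23.4 and 300 ± 17.0 CPM (0.22, adjusted p = 0.18). Phka1, a phosphorylase kinase subunit, averaged 2.27 CPM in labelled-KO and 4.75 CPM in WT macrophages (-1.06, adjusted p = 0.00062).

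The other rapid response genes, a list of 28 immediate early genes of which 27 were tested (Arc was not), were read beside the Nr4a genes. At 18 h 14 of 27 were higher in labelled-KO than in WT macrophages and 0 were lower, where 16.6% of all genes were higher and 15.6% lower, and the list's median log2 difference was 0.48 beside -0.01 over all genes. At 0 h 1 was higher and 3 were lower (1.11% and 2.87% of all genes), and at 4 h 5 were higher and 2 lower (2.87% and 2.7% of all genes). The change from 0 h to 18 h was called higher in labelled-KO than in WT for 11 of 27, and for 6 without labelled-KO number 4 at all times, and was called lower for 0, where 8.57% of all genes were called higher and 9% lower. Egr3, a zinc finger factor, had the largest difference of the 27 at 18 h. It averaged 8.19 ± 1.55 CPM in labelled-KO and 4.83 ± 0.784 CPM in WT macrophages at 0 h, 6.05 ± 0.555 and 1.03 ± 1.12 CPM at 4 h, and 1.53 ± 0.272 and 0.0778 ± 0.0544 CPM at 18 h. Its log2 differences were 0.76, 2.47 and 4.10 (adjusted p = 0.22, 0.00058 and 0.00015, edgeR quasi-likelihood test), the last of them on WT levels close to 0.

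Klf4, a factor of monocyte differentiation, averaged 12.1 ± 3.08 CPM in labelled-KO and 3.54 ± 0.627 CPM in WT macrophages at 18 h (1.77, adjusted p = 4.9e-05, edgeR quasi-likelihood test). Ier2 and Csrnp1 were higher as well, by 0.91 and 0.78 (adjusted p = 0.0017 and 0.00033). Fos, part of the AP-1 factor, followed another course. It was lower in labelled-KO at 0 h and 4 h, at 38.8 ± 3.60 against 61.0 ± 4.48 CPM and 11.3 ± 0.881 against 19.7 ± 5.57 CPM (-0.65 and -0.81, adjusted p = 0.0031 and 0.0023), and at 18 h stood at 77.1 ± 2.67 CPM in labelled-KO and 69.0 ± 1.84 CPM in WT macrophages (0.16, adjusted p = 0.35). Dusp1, a phosphatase that ends MAP kinase signalling, was lower in labelled-KO at 0 h and 4 h (-0.91 and -0.70) and higher at 18 h (0.63, adjusted p = 0.00072). Egr1 was not called at any time, with 0.01, -1.28 and 0.90 (adjusted p = 1, 0.22 and 0.19).

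**Figure D4:**
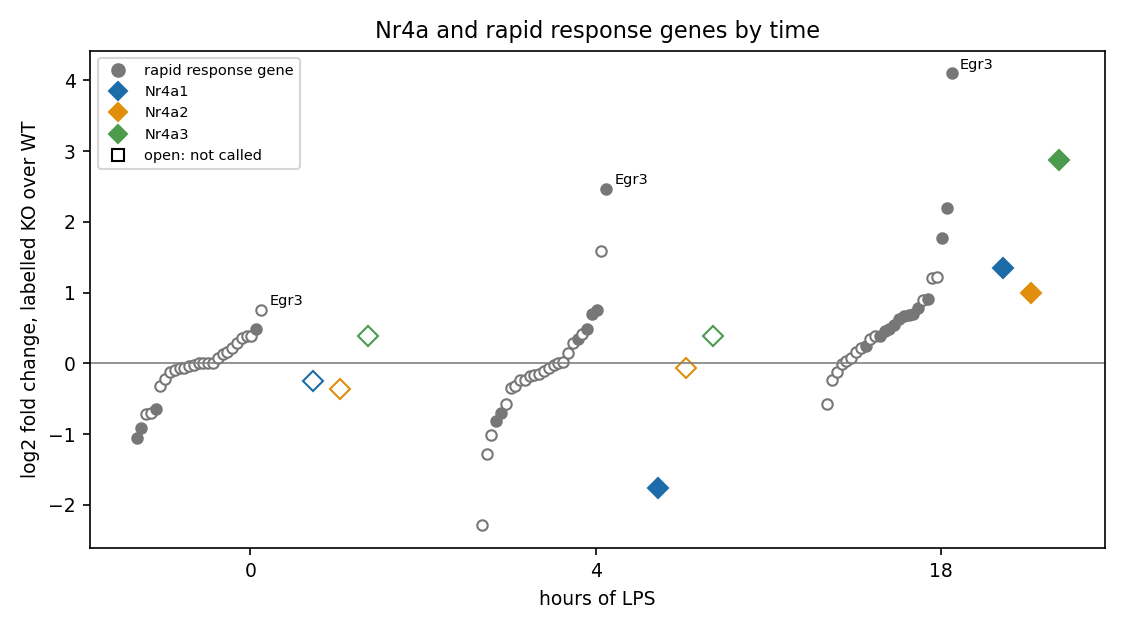
Log2 fold change of labelled Nur77-KO over WT macrophages at 0, 4 and 18 h for 27 rapid response genes (grey circles, sorted within each time) and the 3 Nr4a genes (coloured diamonds). Filled symbols were called at an adjusted p under 0.05, and at 18 h 14 circles and all 3 diamonds are filled and above 0.

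WT number 1 at 4 h stood apart in several of these genes at once, and also in its counts over all genes. The chi-square per degree of freedom between its counts and those of the other WT libraries at 4 h was 43.7 to 69, against 6.99 to 13.2 among those others. WT number 1 stood apart at 0 h too (28.5 to 33.3 against 8.1 to 13.8), but not at 18 h (9.99 to 13.6 against 6.74 to 15.7). At 4 h WT number 1 had an Egr1 level of 71.3 CPM, against 10.0, 6.58 and 6.81 CPM in WT numbers 2, 3 and 4. It was set off above the other 3 WT libraries at 4 h by a gap wide enough for Dixon's 95% rule in 5 of 27 rapid response genes (Egr1, Egr2, Egr3, Ier2 and Klf4) and in 398 of 12529 tested genes (3.18%). Nr4a1 was set off in the same way, but Nr4a2, at 4.30 CPM against 3.29 to 3.67 CPM, and Nr4a3, at 12.5 CPM against 11.7 to 15.2 CPM, were not. Zfp36, Atf3 and Junb, which were high in all 4 libraries, were not set off either. Jund was set off the other way, at 59.5 CPM in WT number 1 against 89.2 to 94.2 CPM. The Nr4a1 differences at 4 h were given above without this library, and the interaction of Nr4a1 from 0 h to 4 h was then -0.59 (adjusted p = 0.53, edgeR quasi-likelihood test).

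**Figure D5:**
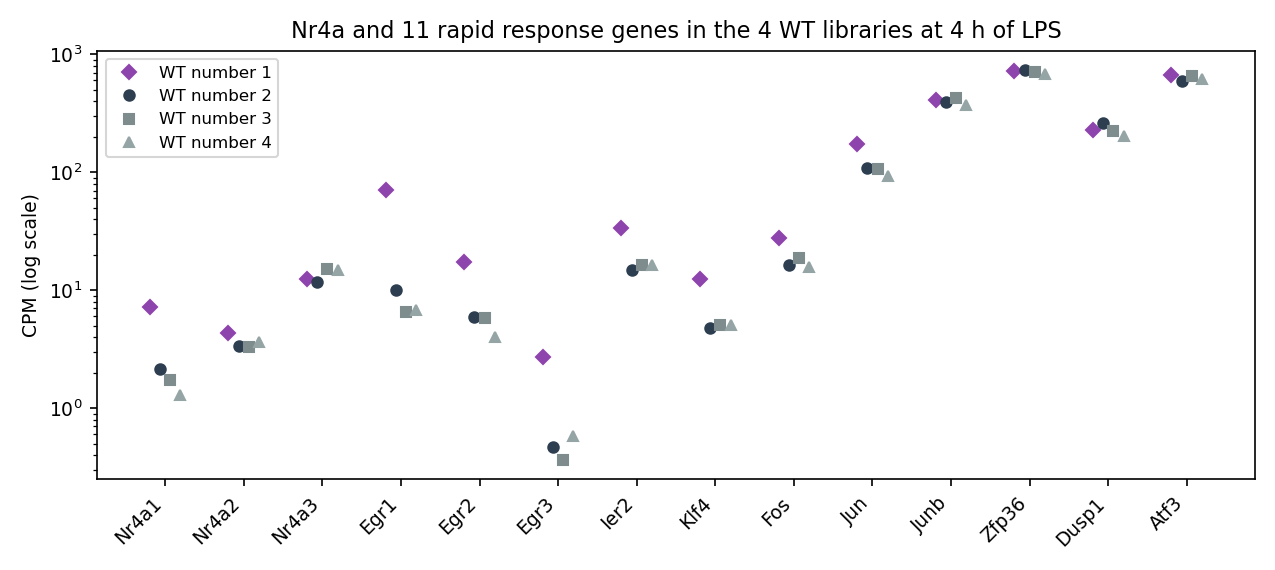
CPM on a log axis of the 3 Nr4a genes and 11 rapid response genes in the 4 WT libraries at 4 h of LPS, with a symbol for each library. WT number 1 (purple diamonds) lies above the rest for Nr4a1 (7.25 CPM), Egr1 (71.3 CPM), Egr2, Egr3, Ier2 and Klf4. It also lies above them for Fos (27.8 CPM), Jun (174 CPM) and Nr4a2, by gaps short of Dixon's rule. For Nr4a3, Junb, Zfp36, Dusp1 and Atf3 it lies among or near them.

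None of the members had a profile over the 21 libraries that was among the closest to another member's. As a measure of likeness the root mean square difference of centred log2 CPM was used, over the 9474 genes with a mean of at least 5 CPM in some group. It was 2.16 between Nr4a1 and Nr4a2, 3.32 between Nr4a1 and Nr4a3, and 2.33 between Nr4a2 and Nr4a3. Ranked by nearness among those genes, Nr4a2 held place 2943 from Nr4a3. The other places of members from each other ran from 7870 to 9166. The gene nearest to Nr4a1 was Gadd45a, a stress-induced growth arrest gene, at 0.59, followed by Cdkn2c, N4bp2l1, Cnnm2 and Ncoa4. Nearest to Nr4a2 was Jarid2, a chromatin factor, at 0.28, followed by Tut7, Hif1a, Fmn1 and Sik3. Nearest to Nr4a3 was Mycl, a Myc relative, at 0.65, followed by Ddhd1, F2r, Trim36 and Tnfaip2. Mycl averaged 11.3 CPM in labelled-KO and 10.8 CPM in WT macrophages at 4 h, and 0.491 and 0.198 CPM at 18 h. These distances are descriptions over libraries that share the LPS response.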

How the data were processed

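Poly(A) RNA-seq libraries (KAPA mRNA HyperPrep, per the labels' protocols) were processed with CASAVA 1.8.2 and HISAT2 2.1.0 on the mm10 build, per the submitters' processing notes. The deposited table gives, for each RefSeq transcript, an estimated count in steps of 0.5 with no depth scaling. The sources used here name no counting tool and no strand setting, so reads shared between genes could not be assessed. RefSeq places LOC105244150 over Nr4a2.

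Of 42361 transcript IDs, 93 had no gene name (0.232 to 2.229% of counts per library) and were left out. The transcript with the highest mean count stood for each gene. Values were rounded and tested with the quasi-likelihood test of edgeR 4.0.16 under R 4.3.3 on all 21 libraries, a mean for each of 6 groups, TMM factors and the default expression filter. SE is the log2 difference over the square root of F, and is not given where the difference is near 0. Ratios of counts carry a 95% interval for counting error only. Alternatives were DESeq2 1.42.0, limma-voom (limma 3.58.1), other factors and filters, summed transcripts, a fit of only the groups compared, a block for the replicate number, a stromal covariate and leaving out each library. Named genes from each list were the called ones of largest change with a mean of at least 5 CPM, up to 3 of each sign, and Idh1, Rxra, Egr1, Egr3, Fos and Nr1h3. Vdr, Phka1 and Crebbp were named after their values were seen. The closest profiles used log2 CPM with a prior count of 2. No 2 libraries of a group agreed within sampling noise. The members and the gene lists were chosen with earlier results of these data known.

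Whether replicate numbers pair libraries was read from how their deviations from the group mean correlate. For WT at 0 h and 4 h, same-numbered libraries correlated at 0.228 to 0.316 (-0.234 to 0.088 for differing numbers). For labelled-KO at 4 h and 18 h they correlated at 0.096 to 0.502 (-0.476 to 0.114 for differing numbers). In every other set of same-numbered pairs the lowest correlation was 0.021 or less. The main fits did not pair libraries by number.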

Additional observations from a re-analysis of the deposited data

Results flagged for a closer look

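Nr4a1 in WT number 1 at 4 h, at 7.25 CPM, was set off from the other WT libraries of that time (2.16, 1.74 and 1.30 CPM) by Dixon's rule. Nr4a3 in WT number 3 at 18 h, at 0.322 CPM, was set off from 0.061, 0.039 and 0.057 CPM, on 4 counts against 1 in each of the others. These were 2 of 9 groups of 4 libraries examined. Dixon's rule sets off about 1 group in 20 when values are normally distributed. Whether CPM on such low counts keep to that rate was not tested.

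The change with LPS differed between the labels in 6 of 9 interactions tested, each a log2 difference of labelled-KO change minus WT change, called by edgeR's quasi-likelihood test. From 0 h to 18 h they were 1.60 for Nr4a1, 1.37 for Nr4a2 and 2.48 for Nr4a3, where 17.6% of all genes were called. From 4 h to 18 h they were 3.12 for Nr4a1, 1.06 for Nr4a2 and 2.49 for Nr4a3, where 10.8% of all genes were called. The Nr4a1 call from 0 h was lost in 12 of 14 fits without a library, and the Nr4a2 call from 4 h in 8 of 14. All 6 called comparisons share the 18 h libraries.

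Sums of markers of other cell types differed in the same libraries. The 14 neutrophil markers summed to 78.7 to 134 CPM in labelled-KO and 28.3 to 49 CPM in WT macrophages at 0 h, to 144 to 202 and 98.2 to 150 CPM at 4 h, and to 328 to 462 and 190 to 277 CPM at 18 h. Of 8 tested, 7, 0 and 5 were called higher in labelled-KO at these times (1.11%, 2.87% and 16.6% of all genes). At 4 h 5 of the 8 had an unadjusted p under 0.05, and DESeq2 called 4 and limma-voom 1. At 0 h no marker was at 0 in all libraries of a group, at 4 h Elane and Ctsg were in labelled-KO and Mpo, Elane, Ctsg and Ly6g in WT, and at 18 h Mpo and Prtn3 were in labelled-KO and Mpo, Elane, Prtn3, Ctsg and Retnlg in WT. The 8 dendritic cell markers summed to 29.7 to 31.6 CPM in labelled-KO and 14.9 to 17.5 CPM in WT macrophages at 18 h. There 3 of 5 tested were called higher in labelled-KO (16.6% of all genes), and Cd209a was at 0 in all libraries. At 4 h these markers summed to 36.3 to 55 and 20.8 to 34.1 CPM, with 1 of 5 called higher (2.87% of all genes). The 10 T, B and NK cell markers summed to 98.5 to 130 and 36.8 to 69.2 CPM at 18 h, with 1 of 2 tested called higher (16.6% of all genes). Their sums overlapped at 0 h and 4 h. The part of these cells in the Nr4a differences was not tested.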

How the results depend on the processing

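Of 36 results for the members (3 genes in 12 comparisons), 26 were called, 20 kept their call under every alternative that gave a value, none of the called ones reversed, and none of the 10 others gained a call. The difference of Nr4a1 between labels at 4 h (-1.77) lost its call with limma-voom (-1.41), on the compared groups alone (-1.77, adjusted p = 0.19 by edgeR), with the replicate block (-1.47) and in 4 of 7 fits without a library (range -2.17 to -0.85), without WT number 1 at all times (-0.86) and without labelled-KO number 4 at all times (-2.17). The Nr4a1 call at 4 h was the only one that the replicate block ended. Labelled-KO and WT libraries of the same number at the same time correlated at -0.343 to 0.164. Whether such libraries have more in common than their number was not tested. At 18 h Nr4a1 (1.35) lost its call with the stromal covariate (1.01), without labelled-KO number 4 at all times (1.16) and in 3 of 7 fits without a library (1.16 to 1.52). Nr4a1 from 4 h to 18 h lost its call in labelled-KO without number 4 at all times (1.85) and in WT without number 1 at all times (-0.52).

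Among interactions, that of Nr4a1 from 0 h to 18 h (1.60) lost its call with summed transcripts (1.60), without labelled-KO number 4 (1.42) and in 12 of 14 fits without a library (1.42 to 1.77). That of Nr4a2 from 4 h to 18 h (1.06) lost it without an expression filter (1.07), on the compared groups alone (1.05), without WT number 1 (0.85), without labelled-KO number 4 (1.07) and in 8 of 14 fits without a library (0.89 to 1.33). Values near 0 changed sign with no call. Nr4a2 between labels at 4 h ran from -0.33 to 0.11 without a library, and was 0.02 without WT number 1 and 0.11 without labelled-KO number 4 at all times. Nr4a3 in labelled-KO from 0 h to 18 h ran from -0.07 to 0.50 without a library. Its interaction from 0 h to 4 h was 0.02 with median-of-ratios factors, 0.01 with upper-quartile factors, 0.01 with DESeq2, 0.09 with limma-voom, 0.00 on the compared groups, 0.10 with summed transcripts, 0.02 with the replicate block, 0.33 without labelled-KO number 4 and -0.33 to 0.24 without a library. The causes were not tested. On the 18 h libraries alone Nr4a3 fell below the expression filter, so its difference between labels and its WT change from 0 h have no value there. The fits that leave out WT number 1 or labelled-KO number 4 at all times were chosen after seeing the data. Counts of all genes called between labels at 4 h (697) were 272 on the compared groups alone, 407 with the stromal covariate and 269 without labelled-KO number 4 at all times, and those at 18 h (4034) were 2428 with the covariate and 2520 without that number. Without a library the lowest counts were 314 at 0 h (499 with all), 275 at 4 h and 2674 at 18 h. Depth limits Nr4a3 at 18 h, which rests on 7 counts in 4 WT libraries.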

Other observations

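Other nuclear receptors of the list moved with LPS while the Nr4a genes did. Of 22 tested, 4 rose and 14 fell at 4 h in labelled-KO macrophages (33.5% and 41.5% of all genes), and 4 rose and 16 fell in WT macrophages (35.1% and 43% of all genes) (edgeR's quasi-likelihood test). Nr1h3, the oxysterol receptor LXR alpha, averaged 6.11 ± 1.25 CPM in labelled-KO and 7.51 ± 2.20 CPM in WT macrophages at 0 h, and 76.9 ± 11.9 and 96.9 ± 6.72 CPM at 18 h (SD, n = 3 and 4). Its rise from 0 h to 18 h was 3.64 on the log2 scale in labelled-KO and 3.71 in WT macrophages (adjusted p = 1.5e-12 and 6.2e-14). Nr3c1, the glucocorticoid receptor gene, averaged 397 ± 23.8 CPM in labelled-KO and 256 ± 19.0 CPM in WT macrophages at 18 h (log2 difference 0.64, adjusted p = 0.00035). Pparg, a receptor of fatty acid handling, was lower at 18 h, at 4.79 ± 0.651 and 7.31 ± 0.980 CPM (-0.59, adjusted p = 0.004).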
